A study of Mus musculus with 8 samples.

Results

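Cytochrome P450 genes were described in nuclei from mouse kidney, across cell classes, 2 times of day and 2 genotypes. The members were the genes whose symbol has the form Cyp, number, letter, number, with Cyp2a4, Cyp2a5, Cyp24a1, Cyp27b1 and Cyp2b10 left out, and with at least 20 unique molecular identifiers (UMIs, 1 for each captured transcript) over the nuclei that passed quality control. Of 32285 genes in the count matrices, 88 had such a symbol and 61 reached 20 UMIs, against 22730 genes of any kind that did. No UMI of Cyp11b2, Cyp2c37 or Cyp7a1 was counted. The members just inside the limit were Cyp3a59 with 20 UMIs and Cyp2c29 and Cyp17a1 with 30 each, and just outside it lay Cyp2c67 with 19 and Cyp2c65 with 17.

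The mice were males on a C57BL/6J background. Ctrl mice carried floxed Bmal1 alleles (Bmal1 lox/lox), and cKOt mice were littermates that also had 2 transgenes, Pax8-rtTA (a doxycycline-dependent activator made in renal tubule cells) and LC-1 (the Cre recombinase it switches on). Both genotypes drank doxycycline at 2 mg/ml for 2 weeks from 8 weeks of age and were killed at 14 weeks, in a cycle of 12 hours of light and 12 hours of dark, at ZT4 (light phase; ZT0 is lights on) or ZT16 (dark phase). Each of the 4 groups had 2 mice, with 1 library of sorted nuclei from a kidney cross-section per mouse, so p-values below measure the spread between 2 mice a group. The question was how the tubular clock and the time of day relate to transcripts in each kidney cell class. Arntl (Bmal1) UMIs are counted over the whole gene and cannot check the deletion, and they stood at 33.1 to 159 CPM (counts-per-million of mRNA UMIs) in the Ctrl libraries and 201 to 296 in the cKOt libraries.

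Cytochrome P450 enzymes are haem proteins that insert an oxygen atom into lipids, steroids, vitamins and foreign chemicals, with electrons passed on from NADPH by P450 oxidoreductase (Por) or, in mitochondria, by ferredoxin. In kidney, CYP4 enzymes hydroxylate the end of fatty acid chains and CYP2J and CYP2C enzymes make epoxides of arachidonic acid, and both kinds of product act on vessel tone and sodium transport. Other members oxidise bile acid precursors and oxysterols (Cyp7b1, Cyp27a1, Cyp39a1, Cyp46a1), retinoic acid (the Cyp26 genes) or drugs and solvents (CYP1, CYP2 and CYP3).

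The 8 libraries held 81391 nuclei after quality control, with 36548873 to 54500820 UMIs each and median UMIs per nucleus between 3003.5 and 4830. Any 2 libraries shared at most 42 cell barcodes. Nuclei were clustered without the P450 genes and classes were named from marker genes as PCT-like and PST-like (proximal convoluted and straight tubule), thin limb, TAL (thick ascending limb), MD (macula densa), DCT (distal convoluted tubule), CNT (connecting tubule), PC (principal cell), aIC and bIC (intercalated cells), UT (urothelium), podocyte, vascular, mesangial or pericyte, smooth muscle or juxtaglomerular, and immune classes; 3.97% of nuclei stayed unnamed. The tissue matched its label by its markers, with 7 proximal tubule markers summing to 4715 to 7097 CPM in every library. Doublets, 4.91% to 6% of nuclei in a library by simulated neighbours, were kept. They made up 30.2% of the MD-like class, which had 17 to 48 nuclei in a library. The PST-like and PCT-like classes are not made up alike in the groups: of their clusters, cluster 8 held 766 to 970 nuclei in each Ctrl library and 2 to 14 in each cKOt library, cluster 4 held 896 to 1197 in each cKOt library and 35 to 244 in each Ctrl library, and cluster 16 held 916 and 934 in the Ctrl ZT4 libraries and at most 34 elsewhere.

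The 61 members had 1040354 UMIs, 0.333% of all mRNA UMIs. The 17 CYP2J and CYP2C genes took 45.8% of these and the 14 CYP4 genes 23%. The 4 sterol and bile acid genes took 21.8%, nearly all from Cyp7b1 with 208137 UMIs. The 17 other CYP1, CYP2 and CYP3 genes took 6.99%, the 4 genes grouped with the vitamin D hydroxylase Cyp2r1 took 1.92%, and the 3 retinoic acid hydroxylases took 0.361%. The steroid hormone genes Cyp11a1 and Cyp17a1 had 79 UMIs in all. UMI counts were not divided by transcript length, so levels are compared between classes and groups for 1 gene and not between genes.

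Most of the family's transcripts lay in the proximal tubule. The summed level of the members was 7171 ± 1451 CPM in PST-like and 4735 ± 1181 CPM in PCT-like nuclei (mean ± SD over the 4 Ctrl libraries, n = 4, as for every class level below), against 722 ± 61.1 in TAL-like nuclei, the lowest of the classes. Of the 61 members, 22 had their highest level in 1 of these proximal classes. Among them was Cyp2j9, with 13285 UMIs, highest in PCT-like nuclei but in another class when doublets were left out. Both classes had similar levels of the arachidonic acid epoxygenase Cyp2j5, at 1479 ± 422 CPM in PST-like and 1342 ± 233 in PCT-like nuclei, and together they held 91% of its UMIs.

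**Figure D1:**
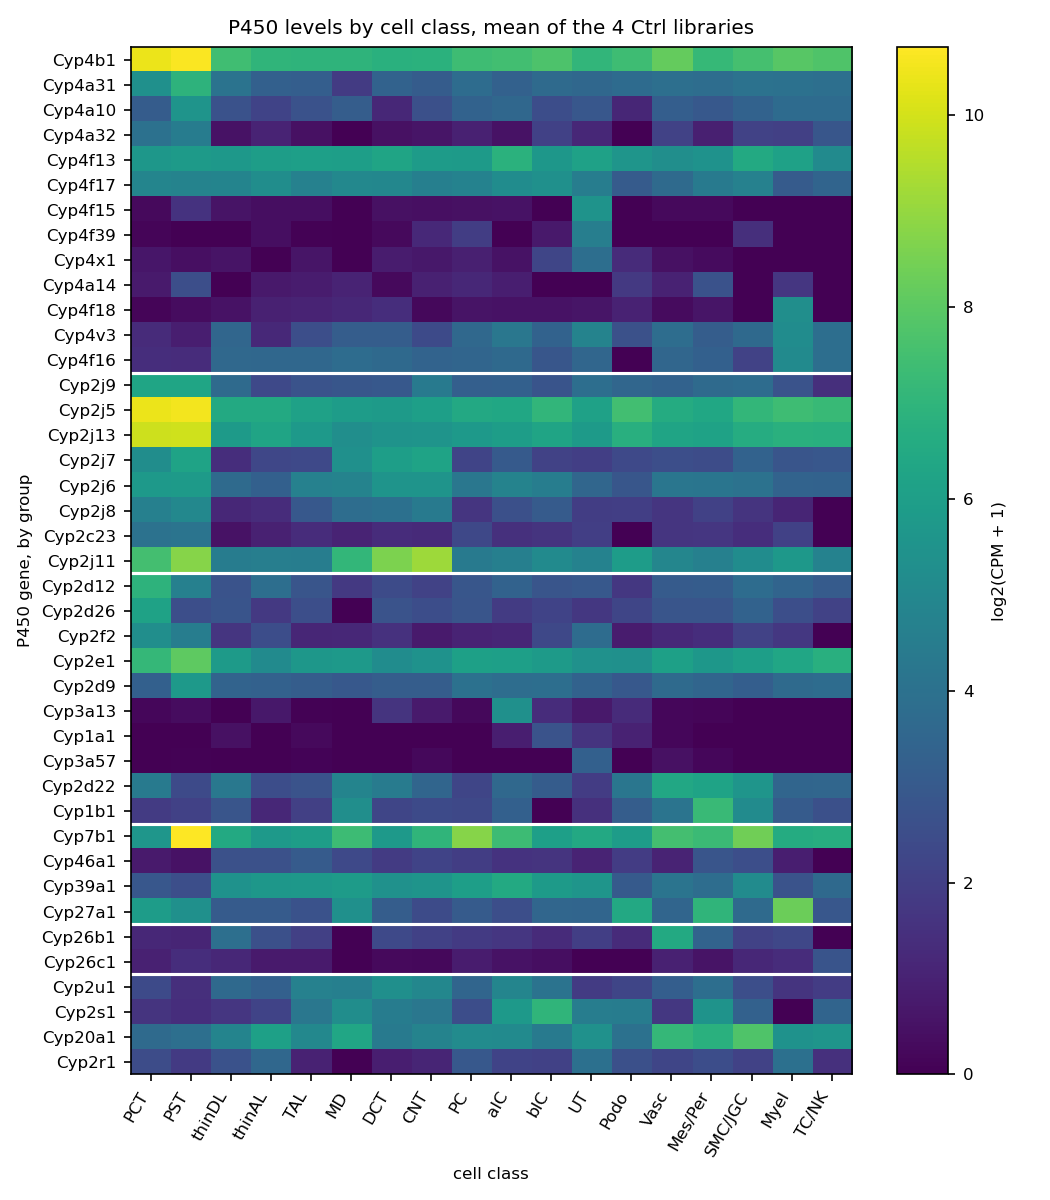
Heat map of the level of 41 P450 genes (rows) in 18 kidney cell classes (columns), as log2 of the mean CPM of the 4 Ctrl libraries plus 1. Cyp2j5, Cyp2j13 and Cyp4b1 are bright in both proximal columns, and Cyp7b1 is brightest in PST. Cyp2j11 is brightest in CNT, Cyp1b1 in the mesangial and pericyte class, Cyp26b1 in the vascular class and Cyp3a13 in aIC.

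Within the proximal tubule, members differed between segments. The oxysterol hydroxylase Cyp7b1 was at 1672 ± 389 CPM in PST-like nuclei, which held 83.9% of its UMIs, and at 435 ± 58.6 in the next class, PC-like nuclei. The fatty acid hydroxylase Cyp4b1 was at 1624 ± 667 in PST-like and 1356 ± 734 in PCT-like nuclei, within the spread of the libraries, and Cyp2j13 at 975 ± 162 and 950. On the convoluted side, Cyp2d12 and Cyp2d26, of the CYP2D drug-metabolising family, had 68.8% and 74.9% of their UMIs in PCT-like nuclei, and Cyp2d26 reached 71.2 ± 7 CPM there against 9.27 in the smooth muscle and juxtaglomerular class. The naphthalene-oxidising Cyp2f2 had 54.2% of its UMIs in PCT-like nuclei. On the straight side, PST-like nuclei held 63% of the UMIs of Cyp2d9, 63.5% of those of the fatty acid hydroxylase Cyp4a10, 62.2% of those of Cyp4a31 and 81.4% of those of the CYP2B gene Cyp2b9.

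The proximal clusters were then taken as 4 sets, each named by a leading gene that is not a P450: the D630023F18Rik clusters (1 and 16, 10207 nuclei) and the Slc22a8 cluster (5, 4278 nuclei) of the PCT-like class, and the Cntnap5a clusters (4 and 8, 8058 nuclei) and the Slc22a19 cluster (7, 3594 nuclei) of the PST-like class. In this order Cyp7b1 was at 49.3, 45.6, 67.6 ± 20.4 and 5300 ± 1789 CPM, so its transcripts lay in the Slc22a19 cluster. Cyp4b1 took nearly the opposite course, at 842, 1981, 2277 ± 932 and 235 ± 104 CPM. Cyp2j13 likewise stood at 634, 1336, 1354 and 153 CPM, and the ethanol-oxidising Cyp2e1 at 56.6, 254, 368 and 29.7.

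Other genes followed a gradient along the sets. Cyp2d26 went down from 94.4 through 42.7 and 5.28 to 4.31 CPM, and Cyp2j11 went up from 145 through 219 and 367 to 568. Cyp4a10 went up from 5.48 through 10.3 and 27.9 to 81.4, and Cyp4a31 from 33.8 through 47.2 and 95.9 to 173. Cyp4a32, a close relative of both, was instead at 7.13, 24.1, 30.1 and 3.79 CPM. Cyp2j5 was between 1252 and 1584 CPM and the epoxygenase Cyp2c23 between 15.5 and 16.8 in all 4 sets. The clusters were made from the same nuclei, so these levels are a description without a test.

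**Figure D2:**
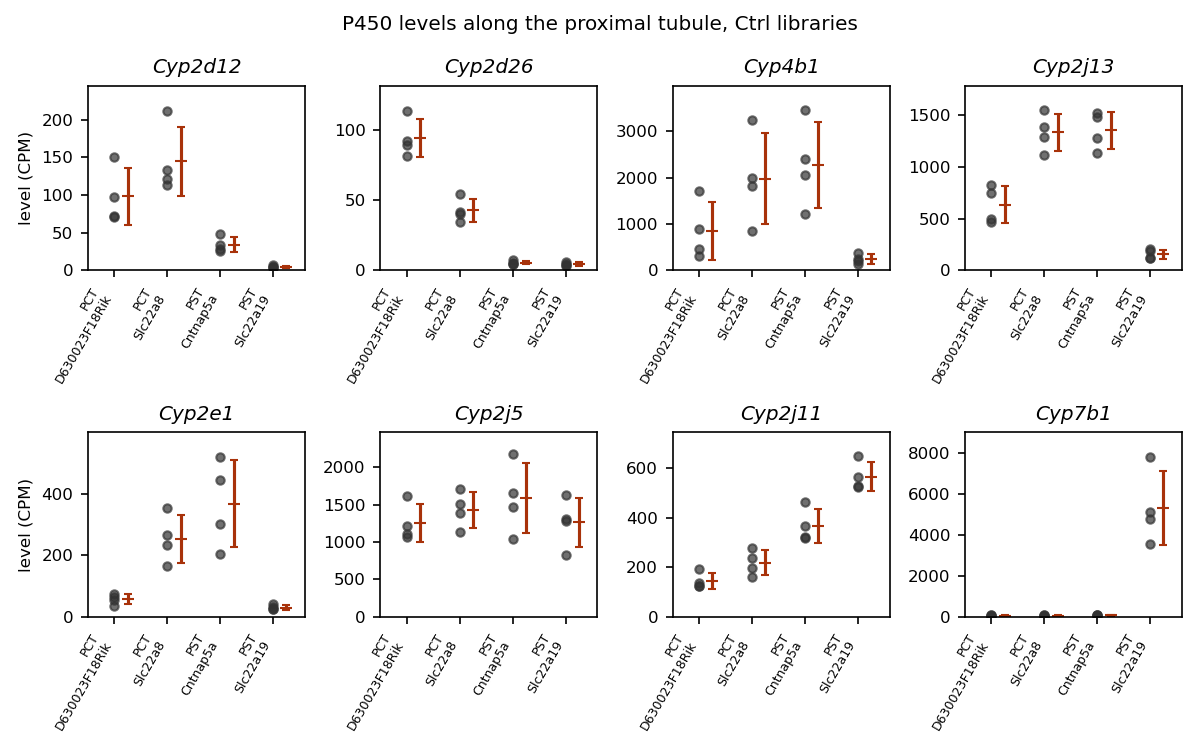
Level in CPM of 8 P450 genes in the 4 sets of proximal tubule clusters; each dot is 1 of the 4 Ctrl libraries and each bar the mean with its SD. Cyp7b1 is high in the Slc22a19 cluster alone among the 4 sets, where Cyp4b1, Cyp2j13 and Cyp2e1 are low, and Cyp2d26 declines from the D630023F18Rik clusters onwards.

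Cyp2j11, Cyp2j7 and Cyp2j8, of the CYP2J cluster of genes on chromosome 4, were in the distal nephron near their proximal level. Cyp2j11 was at 561 ± 64.1 CPM in CNT-like and 384 ± 45.9 in DCT-like nuclei, around its 430 in PST-like nuclei, and fell away to 19.7 in PC-like and 22.3 in TAL-like nuclei. Cyp2j7 had 72.1 ± 31.2 CPM in CNT-like, 62.9 ± 31.4 in DCT-like and 73.1 ± 5.3 in PST-like nuclei, which do not differ beyond their spread, and 3.54 in PC-like and 4.15 in TAL-like nuclei. Cyp2j8 was at 20.4 ± 14.2 CPM in CNT-like and 14.5 ± 9.02 in DCT-like nuclei beside 24 ± 14 in PCT-like and 30.8 ± 18.9 in PST-like nuclei, again within the spread, which spans both times of day. By contrast Cyp2j5, from the same gene cluster, lay at 3.79% to 11.8% of its proximal level in the 16 other classes.

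Outside the tubule's proximal and connecting parts, single members had their highest level in single classes. Cyp1b1, which oxidises oestradiol and aromatic hydrocarbons, was at 153 ± 15 CPM in the mesangial and pericyte class, which held 68.3% of its UMIs, and at 38.4 ± 31.4 in MD-like nuclei. Cyp26b1, which clears retinoic acid, was at 89 ± 70.7 CPM in vascular nuclei, with 73.6% of its UMIs there. Its 4 Ctrl libraries ranged from 30.5 to 179 CPM, so its level is not well fixed. Cyp20a1, an orphan enzyme, was highest in the smooth muscle and juxtaglomerular class at 213 ± 13.5 CPM. The mitochondrial sterol hydroxylase Cyp27a1 was highest in myeloid nuclei at 319 ± 26, followed by 128 in the mesangial and pericyte class and 88.4 ± 43 in podocytes, and Cyp4f18, which inactivates leukotriene B in white cells, was at 37.6 ± 20.1 in myeloid nuclei with 50.6% of its UMIs.

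Several members had their highest level in intercalated or urothelial nuclei. The CYP3A gene Cyp3a13 was at 40.9 ± 13.2 CPM in aIC-like nuclei and at 2.01 in DCT-like nuclei, and the oxysterol hydroxylase Cyp39a1 was highest in aIC-like nuclei too, at 89.4 ± 13.5, with 62.4 ± 9.24 in PC-like and 58.5 ± 40.7 in MD-like nuclei next. The CYP4 gene Cyp4f13, with 17305 UMIs, also had its highest level in aIC-like nuclei. Cyp2s1 was at 127 ± 13.4 in bIC-like, 52.2 in aIC-like and 43.9 ± 12.4 in mesangial and pericyte nuclei. Cyp1a1, the classical target of the aryl hydrocarbon receptor, reached its highest level of 5.7 ± 3.06 CPM in bIC-like nuclei and was at 2.01 in urothelial nuclei. Urothelial nuclei led for Cyp4f15 (44.9 ± 26.5 CPM), for Cyp4f39 (23 ± 8.65), a hydroxylase of very long fatty acids, and for Cyp3a57 (8.78 ± 4.39), with 1.95 (PST-like), 2.9 (PC-like) and 0.4 (vascular) in the class next in order. The brain cholesterol hydroxylase Cyp46a1 was at 7.34 ± 4.52 CPM in TAL-like and 5.33 ± 4.69 in thin descending limb nuclei, Cyp2r1 at 11.1 ± 5.98 in thin ascending limb nuclei and 14.7 in myeloid nuclei, and the retinoic acid hydroxylase Cyp26c1 at 5.82 ± 7.8 in T and NK nuclei, where the SD exceeds the mean.

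Transcripts of the main proximal genes were counted in every class. In the 16 classes other than PCT-like and PST-like, Cyp7b1 lay at 3.22% to 26% of its proximal level, Cyp4b1 at 6.83% to 18% and Cyp2e1 at 12.9% to 40.8%. Proximal genes outside the family did likewise: the phosphate carrier Slc34a1 lay at 4.26% to 9.26%, Lrp2 (megalin) at 5.43% to 16.2%, Miox at 15% to 30.6% and the androgen-regulated Kap at 44.2% to 120%. Low levels of proximal members in other classes are therefore not given as expression there, and the part of free RNA in them was not tested.

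Along the day, 2 CYP2J genes were lower at ZT16 and Cyp2u1 was higher. In sums over all nuclei, the comparison of ZT16 with ZT4 over both genotypes called 3 of 57 tested members (edgeR's quasi-likelihood test, Benjamini-Hochberg adjusted p at most 0.05 over all genes tested), against 0.544% of all genes. In such sums, fewer cells of a type and less RNA per cell cannot be told apart. PCT-like nuclei made up 13% to 21.6% of a library and PST-like nuclei 12% to 16.9%, and the part of these shares in the calls was not tested.

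Cyp2j8 was at 25.8 and 22.1 normalised CPM (CPM after TMM scaling of the libraries) in the Ctrl and 13.4 and 18.3 in the cKOt mice at ZT4, and at 9.47 and 6.08 (Ctrl) and 7.46 and 5.63 (cKOt) at ZT16. All 4 libraries at ZT4 were above all 4 at ZT16. The difference was 2.73-fold, with a log2 fold change of -1.45 ± 0.18 (SE here and below; adjusted p = 0.017). Leaving out Ctrl ZT4 replicate 1 or 2, cKOt ZT4 replicate 2 or cKOt ZT16 replicate 2 ended the call, with adjusted p up to 0.0669.

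The epoxygenase Cyp2j6 was at 47.5, 41.2 (Ctrl), 46.3 and 48.2 (cKOt) normalised CPM at ZT4 and at 30.5, 29.1, 29.5 and 31.9 at ZT16. The times did not overlap, and the values of the genotypes lay among each other. Its log2 fold change was -0.60 ± 0.09 (adjusted p = 0.0311), and the call was kept only without cKOt ZT4 replicate 1, the adjusted p reaching 0.141 with another library left out.

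Cyp2u1, a hydroxylase of long-chain fatty acids, was at 8.15, 7.84 (Ctrl), 8.14 and 7.68 (cKOt) normalised CPM at ZT4 and at 12.1, 13.5, 12.3 and 11.7 at ZT16. Every library at ZT16 was above every library at ZT4. The log2 fold change was 0.63 ± 0.11 (adjusted p = 0.046), and leaving out any 1 of the 8 libraries ended the call (adjusted p 0.0513 to 0.2), as did the replicate number as a block (0.0617).

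**Figure D3:**
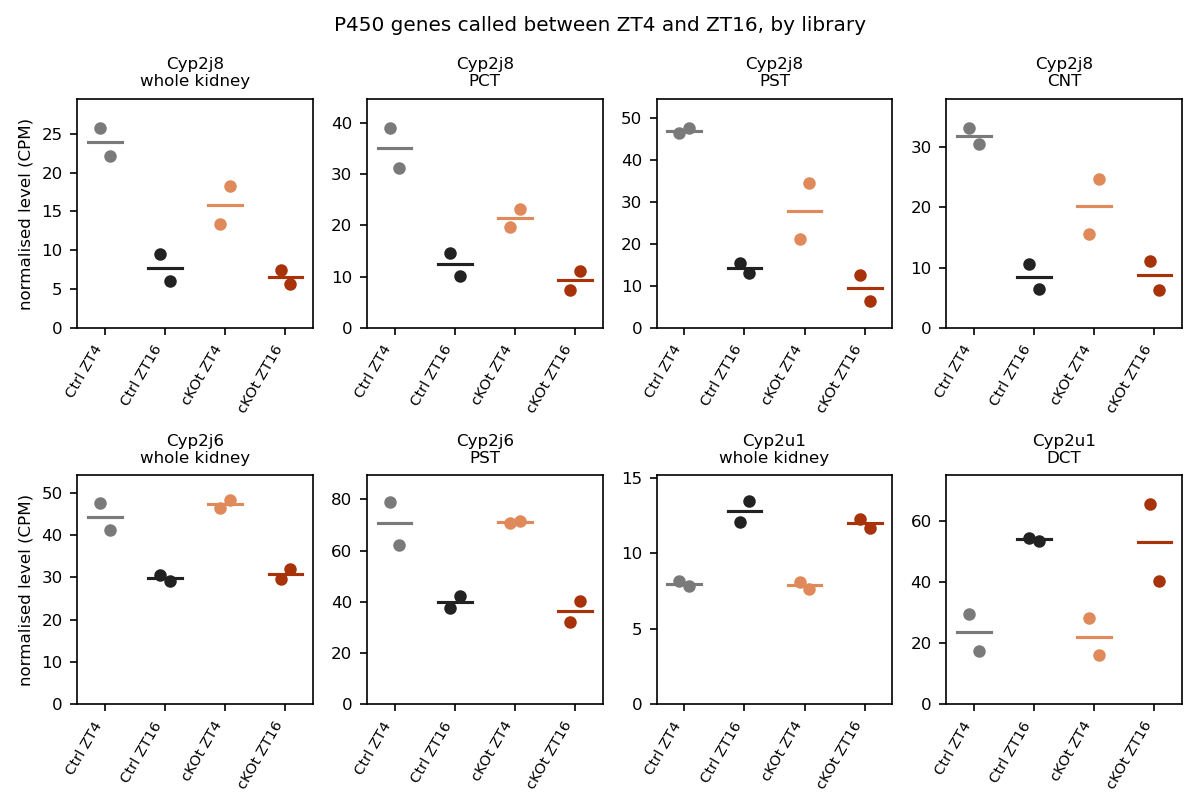
Normalised CPM of Cyp2j8 (whole kidney, PCT, PST, CNT), Cyp2j6 (whole kidney, PST) and Cyp2u1 (whole kidney, DCT) in each of the 8 libraries by genotype and time; dots are libraries and bars the mean of the 2. Cyp2j8 and Cyp2j6 are lower and Cyp2u1 higher at ZT16 in both genotypes in each panel.

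Within each genotype alone no member passed in the whole-kidney sums. In Ctrl mice 0 of 57 members were called, against 0.142% of all genes; 13 had an unadjusted p under 0.05 (9.95% of all genes did), and DESeq2, which called 1.44% of all genes, called 4, with Cyp2u1 higher and Cyp2e1, Cyp2j6 and Cyp2j8 lower at ZT16. In cKOt mice 0 of 54 were called, against 0% of all genes; 10 had an unadjusted p under 0.05 (8.32% of all genes), and DESeq2 called Cyp2j6 and Cyp2j8 (1.02% of all genes). The log2 fold change of Cyp2j8 was -1.62 in Ctrl (adjusted p = 0.0734) and -1.28 in cKOt mice (0.183), that of Cyp2j6 -0.57 (0.152) and -0.63 (0.183), and that of Cyp2u1 0.67 (0.175) and 0.59 (0.289).

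The genotype by time interaction called 0 of 57 members, against 0.0183% of all genes; 4 had an unadjusted p under 0.05 (4.35% of all genes) and DESeq2 called none (0.294% of all genes). The interaction was 0.34 ± 0.35 for Cyp2j8, -0.05 ± 0.17 for Cyp2j6 and -0.08 ± 0.21 for Cyp2u1 on the log2 scale. For each of the 3 genes the difference between genotypes in the change over the day was within 1 SE of 0 in these whole-kidney sums. In single classes it was larger for Cyp2j8, without a call. It was 0.64 ± 0.53 in CNT-like, 0.87 ± 0.72 in DCT-like and, in the other direction, -2.29 ± 1.42 in bIC-like sums.

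Group by group, 38 of the 57 tested members had a log2 fold change below 0 at ZT16, as did 51.3% of all genes, with a median of -0.19 against -0.01 over all genes. Of the CYP4 genes 13 of 14 were below 0 with a median of -0.36 and none called, of the CYP2J and CYP2C genes 11 of 17 with a median of -0.21 and 2 called, and of the sterol and bile acid genes 4 of 4 with a median of -0.13 and none called. In PCT-like sums 10 of 10 tested CYP4 genes were below 0 (median -0.64, from -2.04 to -0.09), and in PST-like sums 10 of 10 (median -0.39, from -1.14 to -0.22); none of them was called there. Of the other members 19 of 30 in PCT-like and 20 of 29 in PST-like sums were below 0, and of all genes 49% and 49.6%.

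The fall of Cyp2j8 was also seen inside the proximal tubule. In PCT-like sums it was at 39 and 31.1 normalised CPM (Ctrl) and 19.6 and 23.1 (cKOt) at ZT4, and at 14.6, 10.2, 7.35 and 11.2 at ZT16, with no overlap between the times. Over both genotypes 1 of 40 members was called (1.17% of all genes), Cyp2j8 with -1.35 ± 0.18 (adjusted p = 0.0106), and the call was lost only without cKOt ZT16 replicate 1 (adjusted p = 0.0634). In Ctrl mice alone 1 of 35 was called (0.539% of all genes), again Cyp2j8 (-1.49, adjusted p = 0.0443). Leaving out any of the 4 Ctrl libraries ended this call, as did the replicate number as a block. In cKOt mice 0 of 40 were called (0.015% of all genes); 11 had an unadjusted p under 0.05 (8.55% of all genes did) and DESeq2 called Cyp2j8 and Cyp4a10, both lower at ZT16 (0.594% of all genes).

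In PST-like sums Cyp2j8 was at 46.4 and 47.5 (Ctrl) and 21.2 and 34.5 (cKOt) normalised CPM at ZT4, and at 15.5, 13.1, 12.6 and 6.42 at ZT16. Cyp2j6 was at 78.9, 62.3, 70.8 and 71.4 at ZT4 and at 37.6, 42.5, 32.3 and 40.5 at ZT16. Neither gene's values overlapped between times. Over both genotypes they were the 2 of 39 members called (0.338% of all genes), with -1.63 ± 0.23 for Cyp2j8 and -0.90 ± 0.13 for Cyp2j6 (adjusted p = 0.0427 for each). Either call was kept only without cKOt ZT4 replicate 1, with adjusted p up to 0.157 for Cyp2j8 and 0.21 for Cyp2j6 without another library, and both were lost with the replicate block (0.0589 and 0.0541).

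Taken alone, the clusters that make up these classes gave like values for Cyp2j8: -1.47 in the D630023F18Rik clusters (adjusted p = 0.00871), -1.27 in the Slc22a8 cluster (0.0153), -1.54 in the Cntnap5a clusters (0.0519) and -1.83 in the Slc22a19 cluster (0.0206). Within 1 genotype the PST-like sums had no call: in Ctrl mice 0 of 38 (0.11% of all genes, 9 members with an unadjusted p under 0.05 against 9.21% of all genes, 2 called by DESeq2 against 1.05% of all genes) and in cKOt mice 0 of 37 (0% of all genes, 6 with an unadjusted p under 0.05 against 5.79% of all genes, 2 called by DESeq2 against 0.257% of all genes). The interaction called 0 of 40 members in PCT-like (0.0519% of all genes) and 0 of 39 in PST-like sums (0.00719% of all genes), with 2 members each at an unadjusted p under 0.05 (4.8% and 3.66% of all genes) and none called by DESeq2 (0.289% and 0.0935% of all genes).

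The distal, TAL-like and aIC-like classes were compared too, chosen after their values were seen. In CNT-like sums 3 of 27 members were called over both genotypes (2.87% of all genes). Cyp2j8 was at 33.1, 30.4 (Ctrl), 15.6 and 24.7 (cKOt) normalised CPM at ZT4 and at 10.5, 6.47, 11.1 and 6.3 at ZT16. The times did not overlap, and the fold change was -1.54 ± 0.26 on the log2 scale (adjusted p = 0.00088).

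Cyp2j7 in CNT-like sums was at 94.1, 99.4 (Ctrl), 48.1 and 68.7 (cKOt) at ZT4 and at 49.6, 43.7, 37 and 38.3 at ZT16. Its lowest value at ZT4, in cKOt replicate 1, was just under the highest at ZT16. This was a log2 fold change of -0.85 ± 0.14 (adjusted p = 0.00117). Cyp2u1 was at 17.5, 20.3, 18.1 and 20.5 at ZT4 and 38.5, 44.5, 44.4 and 32 at ZT16, without overlap (1.04 ± 0.19, adjusted p = 0.0023). Each of these 3 calls was kept whichever library was left out, the highest adjusted p being 0.0278. They were also the 3 of 27 members called in Ctrl mice alone (0.945% of all genes), with log2 fold changes of -1.87, -1.06 and 1.11 for Cyp2j8, Cyp2j7 and Cyp2u1 against -1.22, -0.64 and 0.97 in cKOt mice, which were not called, and the difference between genotypes was not called for any of them (interaction adjusted p = 1 each).

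In DCT-like sums 2 of 25 members were called over the day (1.99% of all genes). Cyp2u1 was at 29.5, 17.5 (Ctrl), 28.1 and 16 (cKOt) normalised CPM at ZT4 and at 54.5, 53.5, 65.5 and 40.3 at ZT16, without overlap (1.23 ± 0.23, adjusted p = 0.00704; 0.053 without cKOt ZT16 replicate 1). Cyp2j7 fell by 0.74 ± 0.19 (adjusted p = 0.0456) with times that overlap, a call lost without 7 of the 8 libraries (up to 0.165) and by DESeq2 (0.168). In Ctrl mice alone it was the 1 member called (0.733% of all genes), at -1.12 ± 0.24 (adjusted p = 0.0347), and in cKOt mice it was at -0.36 ± 0.28 (0.781), while the interaction was 0.76 ± 0.38 (adjusted p = 1). In the other 10 classes in which Cyp2u1 was tested its log2 fold change ran from -0.07 (aIC-like) to 0.69 (thin ascending limb), with 0.40 in PCT-like, 0.44 in PST-like, 0.48 in TAL-like and 0.09 in vascular sums, without a call. In TAL-like sums 1 of 34 members was called (3.48% of all genes), Cyp46a1, at 13.7, 6.88, 10.5 and 8.61 at ZT4 and 3.84, 4.98, 4.76 and 3.75 at ZT16 (-1.16 ± 0.27, adjusted p = 0.0262, lost without 6 of the 8 libraries, up to 0.111).

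The promoters of the members were searched for the E-box, the letters CACGTG that the CLOCK and BMAL1 pair binds. RefSeq promoter windows (GRCm38.p6, 250 bases before to 50 after the start) were matched for 48 of the 61 members. Cyp2u1 and Cyp2j7, which were called over the day, had no window and were not searched. The E-box, read on both strands, lay in 2 of the 48, Cyp2j6 and Cyp4v3, which is 4.17% of the members against 8.09% of 27025 genes (7.15% of 32851 promoters, since a gene can have several). The D-box letters TTATGTAA and TTACGTAA are bound by factors such as Dbp and Tef. They lay in none of the 48 members with a window, and in 1.11% and 0.126% of genes (0.938% and 0.119% of promoters). The 2 windows with the E-box in capitals, from the minus strand of chromosomes 4 and 8, are shown because Cyp2j6 changed over the day while Cyp4v3 was not called.
Cyp2j6, chr4:96553678-96553707: aagagctctgtgCACGTGatcaggggttct
Cyp4v3, chr8:45333317-45333346: accgtgagctttCACGTGcattctgaactt
The E-box starts 44 bases before the annotated start in Cyp2j6 and 171 before in Cyp4v3. No E-box lay in the window of Cyp2j8, whose promoter (chr4:96507348-96507647) lies in the same gene cluster. A match is a description of the letters and not a bound site.

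Between genotypes, the members that edgeR called in whole-kidney sums without pairing of the mice were all lower in cKOt mice. Over both times 4 of 57 members were called (0.948% of all genes), namely Cyp2e1, Cyp2b9, Cyp3a13 and Cyp1b1, all in the group of other CYP1, CYP2 and CYP3 enzymes. The median log2 fold change was -0.03 over the members, with 27 above and 30 below 0, and 0 over all genes. By group it was -0.18 for the CYP4 genes, 0.01 for the CYP2J and CYP2C genes and 0.05 for the other CYP1, CYP2 and CYP3 genes. These comparisons use the same libraries as those over the day.

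Cyp2e1 was at 160, 149 (ZT4), 80.5 and 112 (ZT16) normalised CPM in Ctrl and at 83.9, 72.4, 74.7 and 69.9 in cKOt mice. The lowest Ctrl library, ZT16 replicate 1, lay under the highest cKOt library, so the genotypes overlap. The log2 fold change was -0.70 ± 0.12 (adjusted p = 0.0324). It was -0.98 at ZT4 (adjusted p = 0.0568) and -0.42 at ZT16 (0.753), with an interaction of 0.56 ± 0.23 (adjusted p = 1).

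Cyp2b9, a gene of the phenobarbital-inducible CYP2B family, was at 1.49, 1.13 (ZT4), 1.44 and 0.981 (ZT16) in Ctrl and at 0.289, 0.335, 0.635 and 0.555 in cKOt mice. Cyp3a13 was at 0.841, 0.698, 0.679 and 0.818 in Ctrl and at 0.202, 0.335, 0.235 and 0.185 in cKOt mice. Neither gene's genotypes overlapped, at levels of at most 1.49 CPM, with 10 to 68 UMIs a library for Cyp2b9 and 7 to 32 for Cyp3a13. The log2 fold changes were -1.54 ± 0.25 for Cyp2b9 (adjusted p = 0.0262) and -1.65 ± 0.28 for Cyp3a13 (0.0325).

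Cyp1b1 was at 15, 19 (ZT4), 15.8 and 14.4 (ZT16) in Ctrl and at 7.7, 8.35 (ZT4), 12.9 and 12.8 (ZT16) in cKOt mice. The cKOt libraries at ZT4 were lowest and no value of the genotypes overlapped. Over both times the log2 fold change was -0.66 ± 0.11 (adjusted p = 0.0336). At ZT4 it was the 1 of 56 members called (0.446% of all genes), at -1.08 ± 0.16 (adjusted p = 0.0341), and at ZT16 it was -0.23 (0.985), while the interaction was 0.85 ± 0.22 (adjusted p = 0.848). In the mesangial and pericyte class alone, where most of its UMIs lie and which made up 9.62% to 12.3% of a library, it was at 150 and 172 CPM (Ctrl) and 84.6 and 104 (cKOt) at ZT4 and at 159, 132, 140 and 124 at ZT16, and was not called (-0.76 at ZT4, adjusted p = 0.189).

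Most of these whole-kidney calls ended when a library was left out. The calls of Cyp2e1, Cyp2b9, Cyp3a13 and Cyp1b1 over both times each ended without 7 of the 8 libraries, with adjusted p up to 0.142, 0.12, 0.154 and 0.149, and were kept only without Ctrl ZT16 replicate 1, Ctrl ZT16 replicate 2, cKOt ZT4 replicate 2 and Ctrl ZT4 replicate 1, in that order. The call of Cyp1b1 at ZT4 ended without any 1 library (0.0503 to 0.251). With the replicate number as a block over all groups, Cyp2e1 (0.064), Cyp3a13 (0.0624) and Cyp1b1 at ZT4 (0.0519) lost their calls. At ZT16 0 of 53 members were called (0.174% of all genes); 10 had an unadjusted p under 0.05 (6.1% of all genes) and DESeq2 called Cyp7b1, higher in cKOt mice (1.06% of all genes). The summed level of 7 adipocyte markers, none at 0 in all libraries, was 16.2 and 36.8 CPM in the cKOt ZT4 libraries and 1.82 to 5.37 in the other 6, and its part in these values was not tested. The 5 hepatocyte markers summed to 30.8 to 64.6 CPM and the 5 adrenal markers to 12.1 to 18.7.

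**Figure D4:**
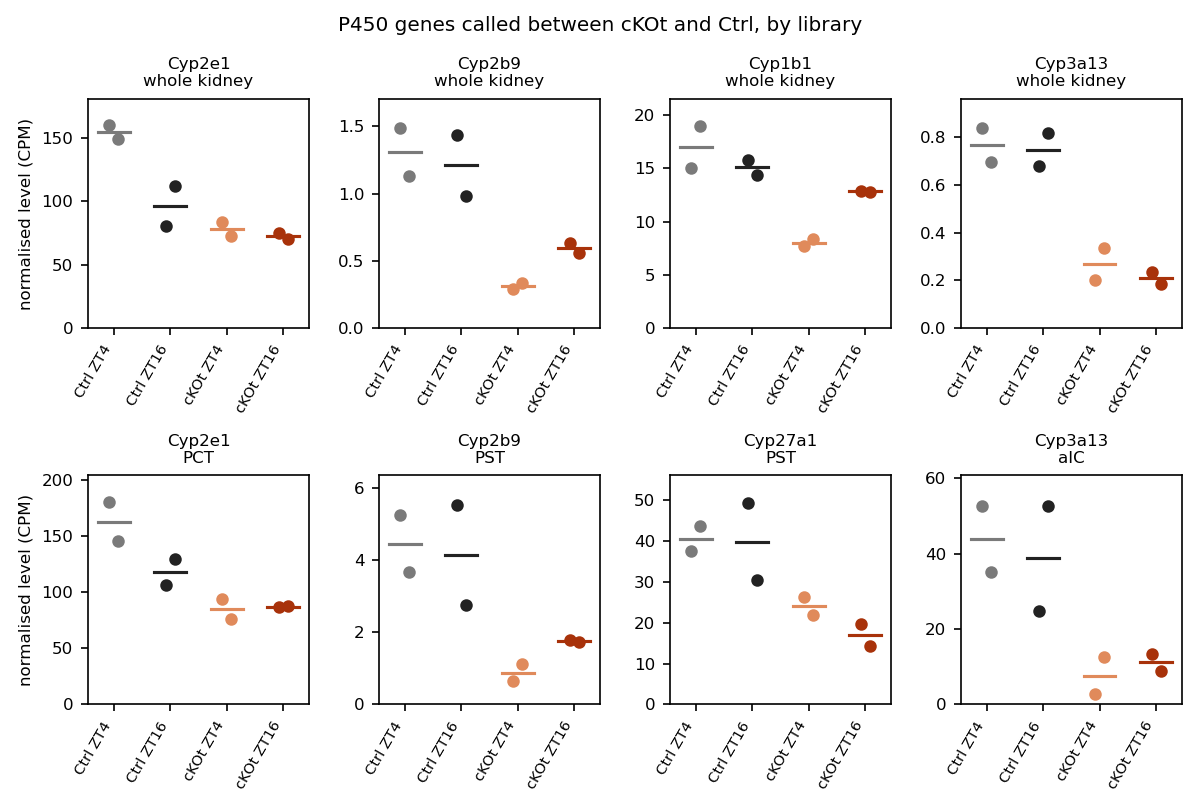
Normalised CPM of Cyp2e1 (whole kidney, PCT), Cyp2b9 (whole kidney, PST), Cyp1b1 (whole kidney), Cyp3a13 (whole kidney, aIC) and Cyp27a1 (PST) in each library by genotype and time; dots are libraries and bars the mean of the 2. All cKOt dots lie below all Ctrl dots in each panel except that of Cyp2e1 in the whole kidney, where Ctrl ZT16 replicate 1 is at 80.5 against a highest cKOt value of 83.9.

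In PCT-like sums 1 of 40 members was called between genotypes over both times (1.29% of all genes). Cyp2e1 was at 180, 145 (ZT4), 106 and 129 (ZT16) in Ctrl and at 93.4, 75.7, 86.5 and 87.7 in cKOt mice, without overlap. The change amounted on the log2 scale to -0.70 ± 0.13 (adjusted p = 0.0341). With 1 library left out the call was kept only without cKOt ZT4 replicate 1. The call was also lost with the replicate block and with classes from 50 principal components. Within the clusters of this class the change was -0.37 (adjusted p = 0.626) in the D630023F18Rik clusters and -0.47 (0.395) in the Slc22a8 cluster. By time, 0 of 39 members were called at ZT4 (0.709% of all genes) and 0 of 37 at ZT16 (0.206% of all genes), with 8 each at an unadjusted p under 0.05 (8.4% and 6.3% of all genes) and 2 and 1 called by DESeq2 (1.7% and 0.793% of all genes).

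In PST-like sums 2 of 39 members were called between genotypes over both times (1.68% of all genes). Cyp27a1 was at 37.5, 43.8 (ZT4), 49.3 and 30.5 (ZT16) in Ctrl and at 26.4, 22, 19.7 and 14.4 in cKOt mice, without overlap. Its log2 fold change was -0.99 ± 0.18 (adjusted p = 0.0335). With 1 library left out the call was kept only without Ctrl ZT16 replicate 2. The call was also lost with classes from 50 principal components and with all proximal nuclei summed together. In the Slc22a19 cluster alone, which Ctrl and cKOt mice share, the change was -1.52 ± 0.22 (adjusted p = 0.00662). In the Cntnap5a clusters, where the genotypes occupy different clusters, it was -0.81 (0.0844).

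Cyp2b9 in PST-like sums was at 5.25, 3.66, 5.53 and 2.77 in Ctrl and at 0.639, 1.12, 1.8 and 1.72 in cKOt mice, without overlap. The log2 fold change was -1.78 ± 0.33 (adjusted p = 0.0342). With 1 library left out the call was kept only without cKOt ZT4 replicate 2 or Ctrl ZT16 replicate 2. The call was also lost with classes from 50 principal components. The change was -2.91 ± 0.51 in the Cntnap5a clusters (adjusted p = 0.0265) and -1.02 ± 0.32 in the Slc22a19 cluster (0.207). Cyp2e1 was at -0.88 ± 0.18 in PST-like sums (adjusted p = 0.0512). At ZT4 0 of 37 members were called (0.619% of all genes) and at ZT16 0 of 37 (0.52% of all genes), with 9 each at an unadjusted p under 0.05 (7.99% and 8.33% of all genes) and 2 each called by DESeq2 (1.59% and 1.62% of all genes).

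The promoter window of Cyp2b9 is shown with those of its CYP2B neighbours on chromosome 7, since all hold the letters AGGTCA, the half-site of many nuclear receptors, in nearly the same surroundings. Of the 48 members with a window 12 held it on either strand (25%), against 18.1% of genes and 16.3% of all promoters. Capitals mark the half-site; Cyp2b23 is on the minus strand and the others are on the plus strand of GRCm38.p6.
Cyp2b9, chr7:26173259-26173288: tagcgaatgagcAGGTCAccagcagcccag
Cyp2b13, chr7:26061345-26061374: tagtgaatgagcAGGTCAccagcagcccag
Cyp2b19, chr7:26757009-26757038: tggggagtgagcAGGTCAccagcagcccaa
Cyp2b23, chr7:26686577-26686606: tagggagtaagcAGGTCAccagcagcccaa
The half-site starts 138 bases before the start in Cyp2b9 and Cyp2b13, 121 before in Cyp2b19 and 164 before in Cyp2b23. The genes are close in sequence but differ in where they were counted: Cyp2b9 had 269 UMIs with 81.4% in PST-like nuclei, Cyp2b19 had 71 with 54.9% in thin ascending limb nuclei and Cyp2b23 had 55 with 74.5% in TAL-like nuclei. Cyp2b13 had 47 UMIs, with its highest level in podocytes. The class with the highest level of Cyp2b23 changed with 50 principal components and when doublets were left out. Reads that fit more than 1 of these copies may have been left out or split in counting, and the same holds for the CYP2J, CYP4A, CYP2D and CYP2C genes.

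Without pairing of the mice, edgeR did not call Cyp7b1, Cyp4b1, Cyp2j5 or Cyp2j13 between genotypes in the whole kidney or the proximal classes. DESeq2 did call Cyp7b1 in the whole kidney at ZT16, as given above. Cyp7b1 was at 630, 494 (ZT4), 371 and 507 (ZT16) normalised CPM in Ctrl and at 874, 601, 1124 and 763 in cKOt mice, which overlap (0.75 ± 0.18, adjusted p = 0.135). Cyp4b1 was at 750, 1217, 714 and 400 in Ctrl and at 344, 687, 413 and 222 in cKOt mice, whose ranges overlap as well (-0.88 ± 0.30, adjusted p = 0.323). Cyp2j5 was at 0.30 (adjusted p = 0.652) and Cyp2j13 at -0.23 (0.524).

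Libraries with the same replicate number at the same time deviated together between genotypes, so a fit that pairs them within each time was added after the data were seen. Over all genes the deviations of same-numbered Ctrl and cKOt libraries correlated at 0.41 at ZT4 and 0.42 at ZT16. This is a description over 1 pair of groups each, and the labels do not say what the number marks. At ZT4 the median UMIs per nucleus of replicates 1 and 2 were 3003.5 and 3950 (Ctrl) and 3344.5 and 4166 (cKOt). At ZT16 they were 4063 and 3226 (Ctrl) and 4830 and 3443 (cKOt). Cyp4b1 was higher in the deeper library of each group, and the part of depth in these pairs was not tested. Cyp4b1 was lower in the cKOt library of each of the 4 such pairs, and paired in this way its log2 fold change was -0.90 ± 0.07 in the whole kidney (adjusted p = 0.00195), -1.14 ± 0.10 in PCT-like (0.00126) and -1.04 ± 0.11 in PST-like sums (0.00264). Cyp2d26, at 17.7, 17.3, 22.9 and 15 normalised CPM in Ctrl and 28.9, 33.1, 35.6 and 26.9 in cKOt mice without overlap, was higher by 0.78 ± 0.08 in the whole kidney (adjusted p = 0.00525). In the whole kidney 10 of 57 members were called with this pairing (2.97% of all genes), in PCT-like sums 6 of 40 (2.57% of all genes) and in PST-like sums 9 of 39 (4.31% of all genes).

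The members that edgeR called without the pairing were also called with it in these sums. In the whole kidney those added were Cyp4b1, Cyp2d26 and Cyp2j5 (0.30 ± 0.05, adjusted p = 0.0365), and the lower Cyp2d9 (-0.53 ± 0.07, 0.0185), Cyp4a10 (-0.75 ± 0.10, 0.0139) and Cyp4a32 (-0.96 ± 0.18, 0.0465). Cyp7b1 was called in PST-like sums (0.71 ± 0.11, adjusted p = 0.0134) and not in the whole kidney (0.73 ± 0.15, 0.0595) or PCT-like sums (0.82 ± 0.21, 0.109). This fit has 2 residual degrees of freedom, and no leave-one-out of it was run.

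In sums of other classes Cyp7b1 and Cyp4b1 did pass. TAL-like sums, where 3 of 34 members were called between genotypes (0.884% of all genes), had Cyp7b1 at 60.1, 68.9, 51.4 and 68.4 in Ctrl and 120, 83.1, 119 and 106 in cKOt mice, without overlap (0.78 ± 0.13, adjusted p = 0.00774, kept whichever library was left out). Cyp4b1 there was at -0.85 ± 0.17 (adjusted p = 0.0211, lost without 4 of the 8 libraries, up to 0.106) and Cyp2e1 at -0.83 ± 0.15 (0.013, lost without Ctrl ZT4 replicate 2 or either cKOt ZT16 replicate, up to 0.0825). In aIC-like sums Cyp4b1 was at 142, 233, 178 and 151 in Ctrl and 62.6, 78.2, 93.5 and 82.2 in cKOt mice (-1.17 ± 0.19, adjusted p = 0.000177), kept whichever library was left out.

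These values moved together over the classes. The log2 fold change of Cyp7b1 was above 0 in 15 of the 16 classes other than PCT-like and PST-like (from -0.54 to 1.74), that of Cyp4b1 below 0 in 16 of 16 (-1.17 to -0.35) and that of Cyp2e1 below 0 in 15 of 15 tested. Between genotypes over both times, and outside the DCT-like, CNT-like, TAL-like and aIC-like sums, Cyp7b1 was called in the podocyte, myeloid and thin ascending limb classes and Cyp4b1 in both thin limb classes, where 0.0693%, 0.0852%, 0.651% (thin ascending limb) and 0.665% (thin descending limb) of all genes were called. At ZT4 alone Cyp4b1 was called in aIC-like (-1.43, 0.494% of all genes), thin ascending limb (-1.38, 0.302%) and podocyte sums (-1.89, 0.156%), and Cyp7b1 in podocyte sums (2.32). Podocyte sums, of 49 to 95 nuclei a library, also had Cyp4b1 called over the day in Ctrl mice (-1.72, adjusted p = 0.0269, 0.214% of all genes), against -0.00 in cKOt mice with an interaction of 1.71 ± 0.52 (adjusted p = 0.729). The calls in the podocyte, myeloid and thin limb classes, and those at ZT4 or in Ctrl mice alone outside the whole kidney and the proximal classes, were not tried without single libraries. Proximal genes outside the family moved across those classes in 1 direction too: Miox was below 0 in 16 of 16 (-1.20 to -0.35), Slc27a2 in 16 of 16 (-0.87 to -0.23), and Lrp2 above 0 in 15 of 16. The part of free proximal RNA in the values of Cyp7b1, Cyp4b1 and Cyp2e1 in other classes was not tested.

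Cyp3a13 was lower in cKOt mice in aIC-like sums as well. These nuclei are part of the whole-kidney sums, where they held 17 of 26, 19 of 29, 15 of 32 and 23 of 30 of its UMIs in Ctrl libraries. In cKOt libraries they held 1 of 7, 5 of 14, 6 of 10 and 5 of 7, so both values of Cyp3a13 rest partly on the same UMIs. In aIC-like sums, where 2 of 19 members were called (0.679% of all genes), it was at 52.6, 35.1 (ZT4), 24.7 and 52.7 (ZT16) normalised CPM in Ctrl and at 2.72, 12.6, 13.4 and 8.94 in cKOt mice. The genotypes did not overlap. These values rest on 17, 19, 15 and 23 UMIs in Ctrl and 1, 5, 6 and 5 in cKOt mice, so its cKOt level is set by a few UMIs. Both Ctrl groups reached the 5 counts in each library that the test asked of a group, as did cKOt mice at ZT16, and cKOt mice at ZT4 did not. This was a log2 fold change of -2.07 ± 0.42 (adjusted p = 0.00391), from -2.79 to -1.73 with 1 library left out, and the call was lost without cKOt ZT4 replicate 1 or Ctrl ZT16 replicate 2 (up to 0.0783) and by DESeq2 (0.0876). The aIC-like nuclei made up 1.1% to 1.5% of each library.

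Cyp2j11 was also lower in cKOt mice in both distal classes, and Cyp2j7 in DCT-like sums. In DCT-like sums 4 of 25 members were called between genotypes (0.519% of all genes). Cyp2j11 was at 444, 368 (ZT4), 344 and 379 (ZT16) in Ctrl and at 215, 227, 301 and 247 in cKOt mice, without overlap (-0.63 ± 0.12, adjusted p = 0.014), and the call was lost without Ctrl ZT4 replicate 1, cKOt ZT4 replicate 1 or cKOt ZT16 replicate 2 (up to 0.117). At ZT4 alone Cyp2j11 (-0.86) and Cyp2j7 (-1.24) were the 2 of 24 called (0.333% of all genes, adjusted p = 0.0276 each), and at ZT16 they were at -0.40 and -0.48 without a call (interaction adjusted p = 1 each). Cyp2j7 was at 103, 69.9, 43.1 and 35.1 in Ctrl and 37.2, 34.6, 28.7 and 27.6 in cKOt mice, with overlap (-0.86 ± 0.19, adjusted p = 0.0378; lost without 7 of the 8 libraries, up to 0.238, and 0.137 by DESeq2). The others were Cyp4b1 (-1.06 ± 0.19, adjusted p = 0.00686, lost without Ctrl ZT4 replicate 2 or cKOt ZT16 replicate 2, up to 0.0808) and Cyp7b1 (0.77 ± 0.17, 0.0378, lost without 6 of the 8 libraries, up to 0.252, and 0.08 by DESeq2). Cyp2j5 was at 0.24 there, without a call.

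In CNT-like sums 2 of 27 members were called (0.821% of all genes). Cyp2j11 was at 458, 595 (ZT4), 609 and 593 (ZT16) in Ctrl and at 277, 461, 402 and 399 in cKOt mice, where cKOt ZT4 replicate 2 lay just above the lowest Ctrl library. The log2 fold change was -0.56 ± 0.13 (adjusted p = 0.0269, lost without 5 of the 8 libraries, up to 0.21). Cyp2j7 was not called there (-0.53 ± 0.14, adjusted p = 0.0937; the genotypes overlap), nor was Cyp2j5 (0.17). Cyp4b1 was at -0.82 ± 0.18 (adjusted p = 0.022, lost without 4 of the 8 libraries, up to 0.226, and 0.616 by DESeq2). Cyp2j11 was called in no other class. In MD-like sums it went the other way (0.98 ± 0.30, adjusted p = 0.464). It was there at 112, 184, 76.6 and 186 in Ctrl and 230, 338, 209 and 308 in cKOt mice, without overlap. These sums rest on 17 to 48 nuclei a library, and 30.2% of the class were scored as doublets. Elsewhere the log2 fold change of Cyp2j11 ran from -0.62 (myeloid) to 0.40 (PC-like). Whether it differed between classes was not tested. CNT-like nuclei made up 3.27% to 4.89% and DCT-like nuclei 2.61% to 3.68% of a library.

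**Figure D5:**
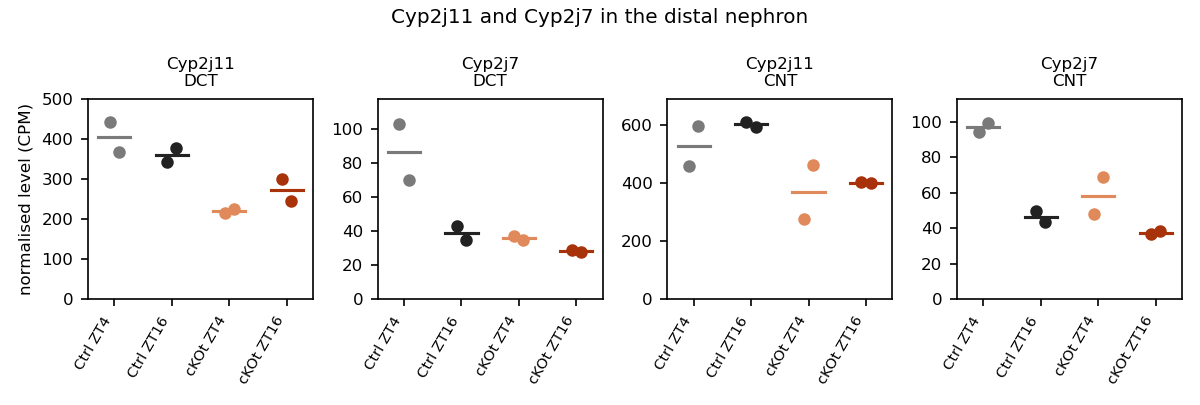
Normalised CPM of Cyp2j11 and Cyp2j7 in DCT and CNT sums for each library by genotype and time; dots are libraries and bars the mean of the 2. Cyp2j11 is lower in the cKOt libraries, with overlap in CNT, and Cyp2j7 is highest in the Ctrl ZT4 libraries of both classes, at 103 and 69.9 in DCT and 94.1 and 99.4 in CNT.

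Genes that work with P450 enzymes were taken from fixed lists, to be read against the 0.948% of all genes called between genotypes in the whole kidney, 1.29% in PCT-like and 1.68% in PST-like sums. Of 8 redox partners none was called between genotypes in the whole kidney, with 7 of 8 below 0, and Por, which feeds electrons to the microsomal members, was at -0.55 (adjusted p = 0.137). In PST-like sums Por was at 479, 398, 364 and 270 normalised CPM in Ctrl and at 237, 197, 209 and 185 in cKOt mice, without overlap, and was lower in cKOt mice (log2 fold change -0.86 ± 0.14, adjusted p = 0.0218, lost without 4 of the 8 libraries, up to 0.121). None of 12 haem genes was called, nor any of 6 epoxide hydrolases and eicosanoid genes, 5 of which were below 0. Of 19 nuclear receptors and transcription factors 3 were called in the whole kidney: Dbp (-1.36, adjusted p = 0.0262) and Tef (-0.67, 0.0324), which activate D-box genes, and Nfil3 (1.92, 0.0474), which represses them. Each lost its call without 5 or 6 of the 8 libraries, with adjusted p up to 0.109, 0.144 and 0.178. In PST-like sums the xenobiotic receptor Nr1i2 was higher in cKOt mice (1.02, adjusted p = 0.0205, lost without 6 of the 8 libraries, up to 0.105). Over the day only Dbp was called among these lists in the whole kidney (-2.40, adjusted p = 0.00615). A further list held 5 P450 genes outside the symbol rule: Cyp51, Cyp4a12a, Cyp4a12b, Ptgis and Tbxas1. Ptgis and Tbxas1 are also among the 6 epoxide hydrolases and eicosanoid genes. None of the 5 was called in the whole kidney. In PCT-like sums Cyp4a12a (-2.51, adjusted p = 0.0258) and Cyp4a12b (-1.87, 0.0356) were lower in cKOt mice, calls lost without 4 and 6 of the 8 libraries.

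Members with few UMIs complete the family. Of the 61, 4 were not tested in the whole kidney because no group had at least 5 counts in both of its libraries. Cyp2c69, Cyp2c38 and Cyp2c40 had 403, 287 and 52 UMIs, of which 76.4%, 73.2% and 78.8% were in PCT-like nuclei, and were not called in the whole kidney. Over the day Cyp2c38 was at -1.12 ± 0.27 (adjusted p = 0.119) and Cyp2c40 at 1.90 ± 0.48 (0.134). Cyp11a1, which starts steroid synthesis, had 49 UMIs and Cyp17a1 had 30. The retinoic acid hydroxylase Cyp26a1 had 135 UMIs, 71.9% of them in proximal nuclei, at 0.782 ± 0.0856 CPM in PCT-like and 0.662 ± 0.207 in PST-like nuclei. Its highest mean, 1.47 ± 2.95 in podocytes, came from 1 of the 4 Ctrl libraries, at 5.89, with the others at 0.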

How the data were processed

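Single-nucleus RNA was read with the 10x 3′ v3.1 chemistry. The deposited UMI counts per gene and nucleus were made by the authors with Cell Ranger 7.1.0 (after bcl2fastq 2.20); the methods name the mm10 reference and the submitters' notes GRCm39, and the matrices hold no coordinates. The counts are not normalized and keep 82784 barcodes, of which 81391 passed minimums of 500 genes and 800 UMIs and a maximum of 2% mitochondrial UMIs.

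Nuclei were clustered (scanpy 1.11.5, 1000 principal components, P450 genes left out; 38 clusters) and named from marker lists; doublets were scored with Scrublet. Counts of mRNA genes (21286 identifiers, 82.8% of UMIs) were summed per library over all nuclei or a class and fitted with edgeR 4.0.16 (TMM, quasi-likelihood test, 1 model of the 4 groups) in R 4.3.3. Genes needed at least 5 counts in both libraries of a compared group, and p-values were adjusted by Benjamini-Hochberg over all genes tested, with a limit of 0.05; SE is the log2 fold change over the root of F. DESeq2 1.42.0 was an alternative. Data were simulated for the comparison of cKOt with Ctrl over both times (16351 genes). Of genes changed by 1 on the log2 scale 80.6% were called, of those changed by 2 92.9%, and 8.06% of calls were unchanged genes. The simulation had no time effect and no shared deviation of same-numbered libraries, and its changed genes were drawn at random from all 16351. It therefore does not give the recovery in these libraries or for members with few UMIs.

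Members and lists were chosen with earlier results of these data known. Genes named by rule are the members called in whole-kidney, PCT-like or PST-like sums, the 12 with the highest mean CPM, the leading member of each other class and those next to the 20 UMI limit; other members are examples chosen after their values were seen.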

Additional observations from a re-analysis of the deposited data

How the results depend on the processing

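No result reversed. TMM against DESeq2's size factors and a minimum of 20 counts moved none of the counts of called members by over 1.5 times, and keeping all barcodes moved none of the 7 whole-kidney counts. In the order Ctrl time, cKOt time, genotype at ZT4 and genotype at ZT16, DESeq2 called 4, 2, 4 and 1 members in the whole kidney (1.44%, 1.02%, 2.16% and 1.06% of all genes) and 2, 2, 2 and 2 in PST-like sums (1.05%, 0.257%, 1.59% and 1.62%), and in PCT-like sums 2 for cKOt time (0.594%) and 2 and 1 for genotype (1.7% and 0.793%). Over both times it called 3 (PCT-like, 2.29% of all genes), 7 (PST-like, 3.21%), 1 (CNT-like, 0.445%), 2 (DCT-like, 0.456%) and 1 (aIC-like, 0.324%) for genotype, and over both genotypes 2 (PCT-like, 2.7%), 4 (PST-like, 1.65%) and 1 (DCT-like, 1.06%) for time. Each further count is followed by the share of all genes called. With no filter on low counts, the whole kidney gave 1 (Ctrl time, 0.263%) and 3 (genotype at ZT4, 0.656%), PCT-like sums 2 (cKOt time, 0.541%), 1 and 1 (genotype at ZT4, 1.38%, and ZT16, 0.658%), 4 (genotype, 1.96%) and 3 (time, 2.54%), and PST-like sums 1 (Ctrl time, 0.644%), 2 and 2 (genotype at ZT4, 1.02%, and ZT16, 0.958%) and 5 (genotype, 2.36%). With genes of all biotypes, Ctrl time gave 1 in the whole kidney (0.208%) and time over both genotypes 2 in PCT-like sums (1.5%). The classes from 50 principal components left some nuclei with PCT markers as best match unnamed and out of the proximal sums. These were a cluster of 1211 nuclei, 99% from Ctrl ZT16 replicate 1, and another of 1210, 98.9% from cKOt ZT4 replicate 2. With 50 principal components, PCT-like sums gave 2 (Ctrl time, 0.871%), 1 (genotype at ZT4, 0.963%), 0 (genotype, 1.25%) and 3 (time, 1.43%), and PST-like sums 0 for genotype (0.329%) and 0 for time (0.00747%); the class with the highest level changed for 8 of 61 members, and for 3 without doublets, when PCT-like sums gave 2 for time (1.33%). Of single cluster sets, added after seeing the data, the D630023F18Rik clusters gave 2 (Ctrl time, 0.706%), 0 (genotype, 1.07%) and 3 (time, 1.36%), the Slc22a8 cluster 0 (genotype, 1.16%), the Cntnap5a clusters 1 (time, 0.384%) and the Slc22a19 cluster 1 (genotype at ZT16, 0.599%). All proximal nuclei together gave 1 (Ctrl time, 0.3%), 1 (genotype at ZT4, 0.717%), 2 (genotype, 1.68%) and 2 (time, 0.547%). The causes were not tested.

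Same-numbered libraries' deviations correlated at 0.41 and 0.42 between genotypes within a time and at -0.26 to 0.19 between times, so the numbers did not pair all groups. With 1 replicate block over all groups, genotype gave 0 at ZT4 (0.328% of all genes) and 2 over both times (0.923%) in the whole kidney, PCT-like sums 0 for Ctrl time (0.631%) and 0 for genotype (1.15%), and PST-like sums 0 for time (0.223%); whole-kidney time went from 3 to 2, without Cyp2u1 (0.477%). With the replicate block within each time, added after seeing the data, genotype at ZT4, at ZT16 and over both times gave 5, 4 and 10 in the whole kidney (1.97%, 0.845% and 2.97% of all genes), 5, 1 and 6 in PCT-like (1.82%, 0.565% and 2.57%) and 2, 4 and 9 in PST-like sums (2%, 2.12% and 4.31%), and 4 in CNT-like sums (1.74%); DCT-like, TAL-like and aIC-like sums had 4, 3 and 2 (1.89%, 1.75% and 1.13%).

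Leaving out 1 library gave, in the whole kidney, 0 to 1 calls for genotype at ZT4 (0.141% to 0.43% of all genes), 0 to 2 for genotype over both times (0.4% to 0.967%) and 0 to 3 for time (0.0483% to 1%). PCT-like sums gave 0 to 1 for Ctrl time (0.113% to 1.22%), 0 to 1 for genotype (0.532% to 1.4%) and 0 to 2 for time (0.169% to 2.5%). PST-like sums gave 0 to 1 for Ctrl time (0% to 0.375%), 0 to 1 for genotype at ZT4 (0.153% to 0.531%), 0 to 2 for genotype (0.682% to 2.2%) and 0 to 3 for time (0.0141% to 0.83%). For genotype and time the ranges were 0 to 3 and 3 to 3 in CNT-like (0.399% to 0.97% and 1.39% to 3.24% of all genes), 0 to 3 and 0 to 2 in DCT-like (0.389% to 0.663% and 0.765% to 2.53%), and 1 to 3 and 0 to 2 in TAL-like sums (0.487% to 0.902% and 1.59% to 3.84%), and 1 to 2 for genotype in aIC-like sums (0.434% to 0.639%). With 2 mice a group, a group left with 1 mouse was taken to vary like the others. For named members, 274 values under an alternative kept their direction and side of the limit, 168 kept their direction and lost the call, and 0 reversed.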

Other observations

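Cyp26b1, which clears retinoic acid, varied more between mice than between groups in vascular nuclei. It was at 34.6 and 113 normalised CPM in the Ctrl and 170 and 84.3 in the cKOt mice at ZT4, and at 177 and 31.3 (Ctrl) and 50.9 and 85.5 (cKOt) at ZT16. The highest and the lowest of the 8 values were both from Ctrl mice at ZT16, and every group overlapped another. The genotype difference over both times was 0.07 ± 0.44 on the log2 scale and the time difference -0.21 ± 0.44 (adjusted p = 0.999 and 0.904 by edgeR's quasi-likelihood test).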
